A study of Mus musculus with 9 samples.

Results

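The 38 genes described here form the amino acid response governed by the transcription factor ATF4, as a list chosen by symbol from the gene table of D2.0R cells (D2.OR in some labels), a mouse line from a mammary adenocarcinoma. All 38 were found among the 55487 genes of the table, and 35 had a mean of at least 1 CPM (counts scaled to library size) and were tested together with all 12330 genes that passed this filter. Ddit3 stood on a pair of rows, of which the other held 0 counts. The 9 libraries hold poly(A) RNA of cells that had been grown in DMEM with 10% serum, loaded with CellTrace Far Red (CTFR), a dye diluted at each division, kept for 1 week in DMEM with 2% serum and separated by FACS into quiescent cells that kept the dye and proliferative cells that had lost it. The labels carry no other treatment, no genotype and no animals.

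The labels mention CTFR-positive, bulk and CTFR-negative samples without saying which library is which. Libraries are thus called by the running number of their titles, 1 to 9, and none is compared with a sorted fraction. Values are given library by library. They are also described by title block (1 to 3, 4 to 6, 7 to 9) and by place within the block, since the titles run in that order, and no place or block is read as a condition. No source used here says whether the cultures were separate, and p-values therefore concern these libraries. The shallowest, library 9, held 18732737 estimated counts and the deepest, library 7, held 41243036. Of 5 epithelial markers, Krt8, Krt18 and Cdh1 passed the filter (mean of at least 1 CPM), at 145 to 660.2 CPM, 37.7 to 155 CPM and 5.43 to 13.0 CPM, whereas Epcam, an epithelial adhesion gene, reached at most 0.218 CPM and Krt19 was near 0. All 4 mesenchymal markers passed it, with Fn1 at 9468 to 14569 CPM, Vim at 3524 to 5900.1 CPM, Col1a1 at 1092 to 4209.5 CPM and Pdgfrb at 215 to 531 CPM. The 5 NK cell markers had 0 counts, and 6 leukocyte and 4 endothelial markers stayed at or below 0.489 CPM each.

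ATF4 is a leucine zipper transcription factor whose mRNA is translated more when the initiation factor eIF2 is phosphorylated by kinases that sense uncharged tRNA, misfolded protein in the endoplasmic reticulum, haem shortage or double-stranded RNA. With partners of the C/EBP family it activates genes for the uptake and synthesis of amino acids, for tRNA charging, and for feedback that ends the response. Since ATF4 itself is controlled largely at translation, an mRNA table shows its transcript and the transcripts of its targets, not its protein.

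Of the 35 members tested, 32 were variable, meaning an adjusted p under 0.05 in a chi-square test against counting noise (Benjamini-Hochberg over all genes) and a highest library at least 2-fold above the lowest. Over all genes tested the percentage was 27.3%. The chi-square condition alone was met by 35 of 35 members and by 96% of all genes, so the range is what separates genes here. The median range of the members was 1.75 on the log2 scale, against 0.67 over all genes tested. In bulk RNA, fewer cells of a type and less RNA per cell cannot be told apart.

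The members, listed by symbol but with earlier results of these data known, shared an order of libraries. In 32 of 35, libraries 2, 5 and 8, which hold the middle place of each title block, had the 3 lowest values of the 9, a pattern found in 20% of all genes tested. In the other 3 members these were neither the 3 lowest nor the 3 highest, and over all genes they were the 3 highest in 20%. The percentages over all genes moved to 15.8% lowest and 24.1% highest when libraries were scaled by totals alone, and the members' count moved to 31. Variable genes with libraries 2, 5 and 8 lowest were 31 of the 35 members and 4.83% of all genes. Variable genes with them highest were 9.25% of all genes. Each member's log2 CPM was centred on that gene's median, and the median of these differences over members stood at -1.25, -1.19 and -1.10 in libraries 2, 5 and 8 and between -0.01 and 0.26 in the other 6. Among those 6 libraries the median range was 0.48 for members and 0.43 for all genes tested (log2 scale), and among libraries 2, 5 and 8 it was 0.38 against 0.23. All 38 members together held 0.938%, 0.419% and 0.862% of the counts in libraries 1 to 3, 0.961%, 0.422% and 0.877% in libraries 4 to 6, and 0.993%, 0.457% and 0.861% in libraries 7 to 9. Totals of libraries 2, 5 and 8 (27880290 to 35222378 estimated counts) lay within those of the others, and mitochondrially encoded genes held 1.37% to 1.64% of their counts against 1.31% to 2.05% in the other 6. Some markers of cell type had the opposite order. Krt8, a keratin, stood at 181, 310.2 and 145 CPM in libraries 1 to 3, 203, 415 and 162 CPM in libraries 4 to 6, and 286, 660.2 and 186 CPM in libraries 7 to 9. Col1a1, a collagen chain, stood at 1092, 3552 and 2033 CPM in libraries 1 to 3, 2207, 4047 and 3065 CPM in libraries 4 to 6, and 2832, 4209.5 and 2958 CPM in libraries 7 to 9. In both, and in Vim, the gene of vimentin, libraries 2, 5 and 8 were the 3 highest, which makes 1 of the 3 epithelial and 2 of the 4 mesenchymal markers tested. Krt18, Cdh1 and Pdgfrb had neither order over the 9 libraries. Within each title block, the middle library was nevertheless the highest in Cdh1 and Pdgfrb, but not in Krt18. In libraries 2, 5 and 8 Pdgfrb stood at 531, 451 and 377 CPM, and library 1 reached 378 CPM. Cdh1 stood there at 11.2, 10.6 and 13.0 CPM, and library 7 reached 11.7 CPM. Fn1, the most abundant of these markers, went the other way, with the middle library the lowest of each title block. It stood at 10949, 10583 and 9468 CPM in libraries 2, 5 and 8 and at 10223 to 14569 CPM in the other 6. The 5 epithelial markers summed to 414 to 779 CPM in libraries 2, 5 and 8 and 226 to 378 CPM in the others. The 4 mesenchymal markers, Fn1 included, summed to 19776 to 20981 CPM and 17491 to 20626 CPM. The part of mitochondrial reads and of these markers in the result was not tested.

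**Figure D1:**
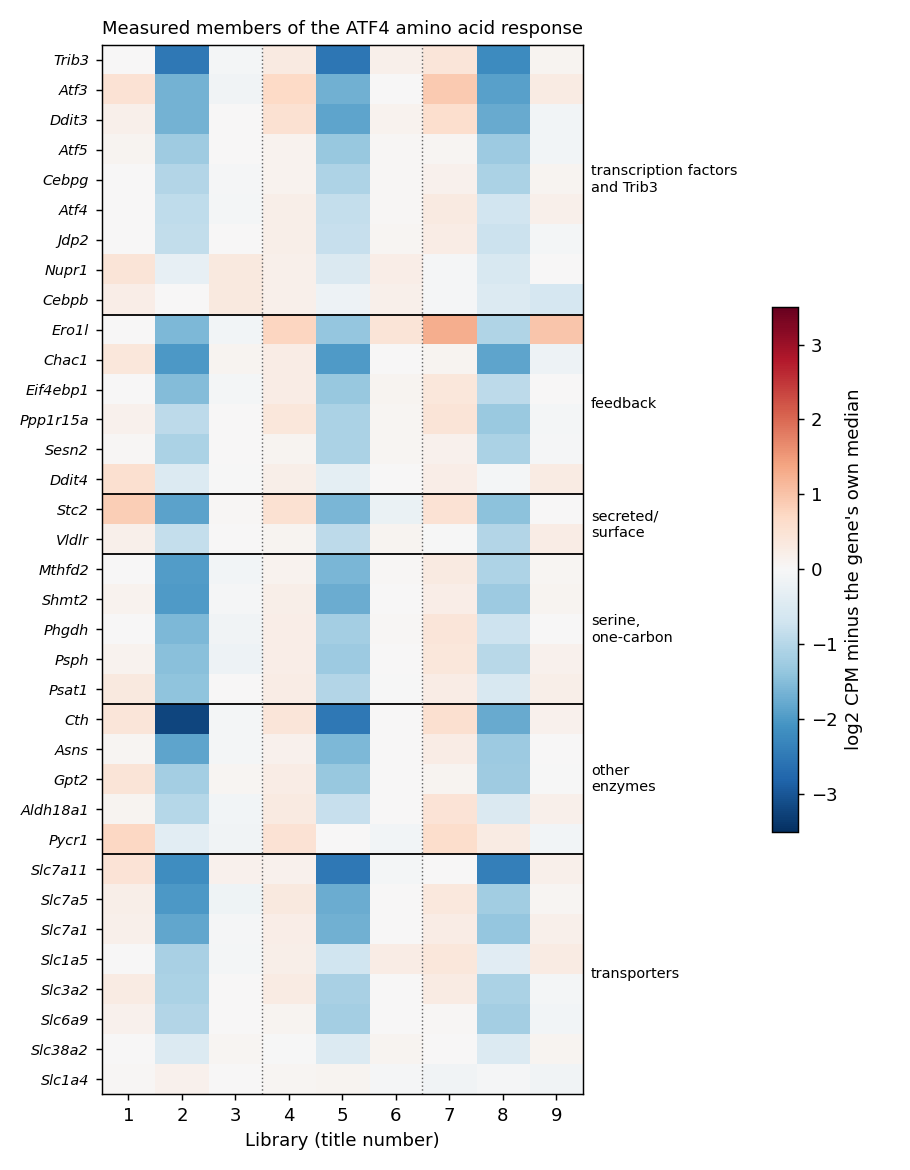
Heat map of the 35 members tested, with libraries 1 to 9 on the horizontal axis and genes, grouped by role and sorted by range, on the vertical axis. Colour is log2 CPM centred on the median of each gene, and columns 2, 5 and 8 hold the 3 lowest values in 32 of the 35 rows, the exceptions being Cebpb, Pycr1 and Slc1a4.

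The transcription factors and their inhibitor Trib3 differed widely in how far they ranged. Atf4 (chr15:80255184-80257541 on the plus strand of GRCm38, protein-coding) stood at 402, 219 and 385 CPM in libraries 1 to 3, 467, 228 and 410.5 CPM in libraries 4 to 6, and 498, 251 and 457 CPM in libraries 7 to 9. Its 3 lowest values were those of libraries 2, 5 and 8, its range was 2.27-fold (95% interval 2.21 to 2.33), and the lowest of the other 6 libraries lay 1.54-fold above the highest of those 3. Ddit3, the gene of CHOP, a factor linked to cell death under stress, stood at 217, 61.5 and 193 CPM in libraries 1 to 3, 277, 53.3 and 209.5 CPM in libraries 4 to 6, and 289, 56.7 and 181 CPM in libraries 7 to 9. The values of libraries 2, 5 and 8 did not overlap the other 6, with a gap of 2.95-fold and a range of 5.42-fold (95% interval 5.14 to 5.73).

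Trib3 (chr2:152337422-152344032, minus strand) encodes a pseudokinase that ATF4 induces and that restrains it, and had a range of 7.87-fold (95% interval 7.46 to 8.32). It stood at 289.6, 51.3 and 275 CPM in libraries 1 to 3, 360.4, 49.7 and 325 CPM in libraries 4 to 6, and 392, 62.7 and 309.6 CPM in libraries 7 to 9. Its gap of 4.38-fold between libraries 2, 5 and 8 and the others was the widest of the 35 members tested. Atf3, a stress-induced repressor, stood at 14.9, 3.33 and 9.52 CPM in libraries 1 to 3, 17.1, 3.25 and 10.5 CPM in libraries 4 to 6, and 19.6, 2.81 and 12.8 CPM in libraries 7 to 9, which rested on 93 to 787 counts. It ranged 6.98-fold (95% interval 5.68 to 8.66), and unlike Trib3 it also ranged over 2-fold among the 6 higher libraries (1.04 on the log2 scale).

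Of the other factors, Atf5, which like Atf4 is regulated at translation, ranged 2.76-fold, from 122 to 337 CPM, and Cebpg, a dimer partner of ATF4, 2.39-fold, from 54.6 to 131 CPM. Jdp2, a repressor of the AP-1 family, ranged 2.18-fold, from 34.8 to 76.0 CPM. Nupr1, a stress-induced chromatin protein gene, was called at 2.03-fold (81.9 to 166 CPM), a call lost with RLE factors (0.99 on the log2 scale), totals alone (0.95) or no filter (0.97), and without library 1 (0.91), library 2 (0.99) or library 8 (0.97). Cebpb, another C/EBP gene, was not variable by the 2-fold rule. It stood at 1167, 985 and 1250.2 CPM in libraries 1 to 3, 1120.3, 864 and 1125 CPM in libraries 4 to 6, and 966, 710.4 and 657 CPM in libraries 7 to 9, with its lowest value in library 9 and all of libraries 7 to 9 below libraries 1 to 3, an order seen in 11.2% of all genes.

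Per kilobase of merged exons, Cebpb had the highest median level of the 38, at 655 CPM per kb, followed by Atf4 at 171 and Atf5 at 155 CPM per kb. Phgdh and Slc3a2 came next at 152 and 145 CPM per kb. Of the members tested, Stc2 and Pycr1 had the lowest level, at 1.72 and 1.28 CPM per kb.

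Members that vary together can be set beside their promoters. A promoter sequence from RefSeq (GRCm38.p6, 250 bases before to 50 after the start) was at hand for 33 of the 38 members. The C/EBP-ATF response element, the composite site to which ATF4 dimers bind, was searched as TGATGNAA on both strands. It was found in 12 of the 33 members (36.4%) and in 4.51% of all genes with a promoter sequence. Among tested genes with a promoter sequence, it was found in 10 of 31 members and in 2.59% of all genes. Of those 31 members 28 were variable, and 9 of the 28 held it. The members were listed as genes of the ATF4 response, so their excess over all genes is not independent of how the list was chosen. A match is a description of letters, not evidence of binding, and sites outside the window were not searched. Slc7a11 had a pair of matches, at -66 to -59 and -47 to -40 from the start. The Trib3 match lay after the start, at 15 to 22. The stretches below are shown because they hold the match in members of wide range (Slc7a11, Atf3, Chac1 and Asns), in a member of narrower range (Nupr1) and in a member that did not pass the 2-fold rule (Slc1a4). Each has 90 bases, 5′ to 3′ on the gene's strand, with the match in capitals, as TGATGNAA or its reverse complement.
Slc7a11: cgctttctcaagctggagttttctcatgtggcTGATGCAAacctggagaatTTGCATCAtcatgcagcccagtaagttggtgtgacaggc
Atf3: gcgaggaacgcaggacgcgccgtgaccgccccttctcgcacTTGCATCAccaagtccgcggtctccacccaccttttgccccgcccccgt
Chac1: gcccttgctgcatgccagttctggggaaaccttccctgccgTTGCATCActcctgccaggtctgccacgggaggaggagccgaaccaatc
Asns: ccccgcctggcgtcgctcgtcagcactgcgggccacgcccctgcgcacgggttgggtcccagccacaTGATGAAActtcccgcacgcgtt
Nupr1: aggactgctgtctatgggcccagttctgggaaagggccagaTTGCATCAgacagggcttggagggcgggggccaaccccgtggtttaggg
Slc1a4: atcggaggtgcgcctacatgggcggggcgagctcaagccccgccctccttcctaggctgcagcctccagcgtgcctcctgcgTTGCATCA
These lie at chr3:50443622-50443711 (minus strand), chr1:191183395-191183484 (minus strand), chr2:119351008-119351097 (plus strand), chr6:7693210-7693299 (minus strand), chr7:126625532-126625621 (minus strand) and chr11:20332710-20332799 (minus strand). The match thus stood both in members whose libraries differed several-fold and in Slc1a4, whose libraries differed 1.21-fold. Fgf21 and Got1 also hold it and were below the filter.

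All 6 genes of feedback on the stress response and on the growth kinase complex TORC1 were variable. Each had its 3 lowest values in libraries 2, 5 and 8, and 4.83% of all genes tested were variable with this order. Chac1, a glutathione-degrading enzyme, stood at 119, 22.7 and 97.5 CPM in libraries 1 to 3, 109, 23.0 and 91.4 CPM in libraries 4 to 6, and 98.2, 25.6 and 80.5 CPM in libraries 7 to 9. Its gap was 3.14-fold and its range 5.25-fold (95% interval 4.86 to 5.68). Eif4ebp1, which encodes the translation repressor 4E-BP1, a target of TORC1, stood at 255, 88.4 and 241 CPM in libraries 1 to 3, 301, 101 and 269 CPM in libraries 4 to 6, and 336, 133 and 253 CPM in libraries 7 to 9, a range of 3.80-fold (95% interval 3.65 to 3.95). Sesn2, a sestrin that inhibits TORC1 when leucine is short, lay in 2 narrow bands, 37.6 to 37.9 CPM in libraries 2, 5 and 8 and 78.6 to 90.6 CPM in the other 6.

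Ero1l, which encodes the oxidase ERO1-alpha of the endoplasmic reticulum, showed a second pattern on top of the first. It stood at 373, 126 and 348 CPM in libraries 1 to 3, 632, 146 and 509.6 CPM in libraries 4 to 6, and 894, 179 and 727 CPM in libraries 7 to 9, a range of 7.08-fold (95% interval 6.86 to 7.31). At each place within the block its value was higher in the later title block, and its range among the 6 higher libraries alone was 1.36 on the log2 scale, the widest of the 35 members tested. Ppp1r15a, the GADD34 subunit that directs dephosphorylation of eIF2, ranged 3.36-fold, from 68.7 to 231 CPM. Ddit4, the TORC1 inhibitor REDD1, ranged 2.05-fold, from 67.2 to 138 CPM, with a gap of only 1.04-fold between library 8 and library 3. Its call was lost without library 1 (0.75 on the log2 scale), without library 2 (0.88) and with totals alone (0.999).

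Among the secreted and surface proteins, Stc2, a stanniocalcin hormone gene, stood at 16.3, 2.41 and 9.10 CPM in libraries 1 to 3, 12.8, 2.94 and 7.56 CPM in libraries 4 to 6, and 12.6, 3.27 and 8.90 CPM in libraries 7 to 9, on 84 to 505 counts. Its range was 6.75-fold (95% interval 5.34 to 8.62), and libraries 1, 4 and 7 held its 3 highest values. Vldlr, a lipoprotein receptor gene, stood at 247, 123 and 220.03 CPM in libraries 1 to 3, 237, 117 and 233 CPM in libraries 4 to 6, and 219, 109 and 264 CPM in libraries 7 to 9, a range of 2.43-fold (95% interval 2.33 to 2.53), with the highest value in library 9. Fgf21, a hormone of the starved liver, had only 2 to 10 counts a library and was below the filter.

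**Figure D2:**
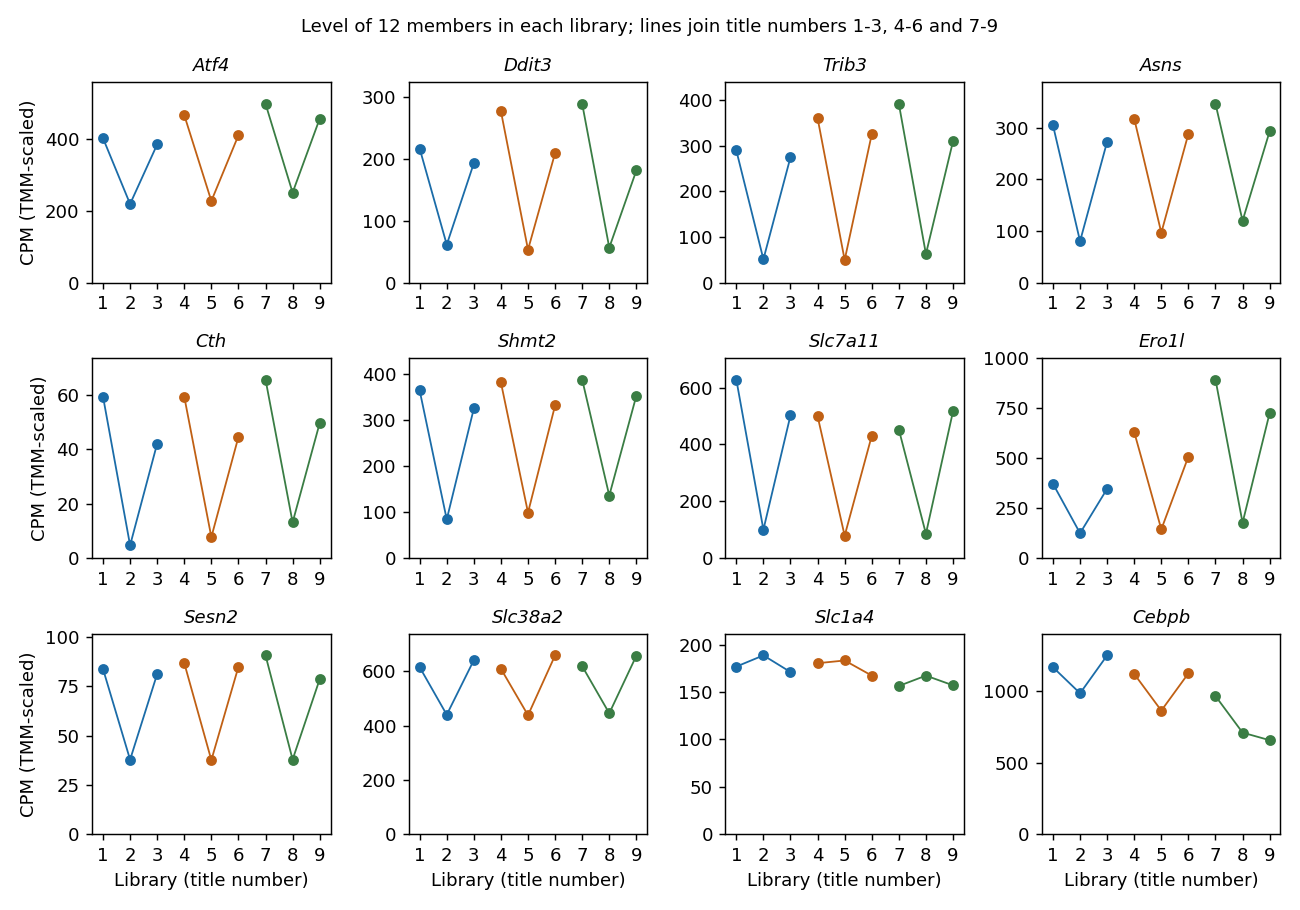
Level of 12 members in each library, in TMM-scaled CPM on a linear axis from 0, against title number. Lines join libraries of the same title block, there are no replicates and no error bars, and libraries 2, 5 and 8 are the low points in every panel except Slc1a4 and Cebpb.

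The 5 enzymes that make serine and feed its carbon to folate were all variable. Libraries 2, 5 and 8 were the 3 lowest in all 5, and 4.83% of all genes tested were variable with this order. Phgdh, the entry enzyme of serine synthesis, stood at 378, 127 and 349 CPM in libraries 1 to 3, 441, 166 and 392 CPM in libraries 4 to 6, and 511, 227 and 381 CPM in libraries 7 to 9, a range of 4.04-fold (95% interval 3.91 to 4.17). Shmt2, which splits serine to glycine in mitochondria, stood at 364, 84.7 and 325 CPM in libraries 1 to 3, 382, 99.4 and 332 CPM in libraries 4 to 6, and 388, 136 and 353 CPM in libraries 7 to 9, a range of 4.58-fold (95% interval 4.40 to 4.76). Mthfd2, the mitochondrial folate enzyme that follows it, stood at 142, 36.4 and 132 CPM in libraries 1 to 3, 154, 46.9 and 147 CPM in libraries 4 to 6, and 178, 66.6 and 150.1 CPM in libraries 7 to 9, a range of 4.89-fold (95% interval 4.60 to 5.19). Psat1 and Psph, the remaining steps from phosphoglycerate to serine, ranged 3.35-fold and 3.64-fold.

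In each of these 5 enzymes, library 2 was below library 5 and library 5 below library 8. The 3 low libraries were less alike in Phgdh than in Sesn2, at 127, 166 and 227 CPM for Phgdh against 37.8, 37.6 and 37.9 CPM for Sesn2. Over the 35 members tested this order occurred in 19, against 33% of all genes, and in only 2 of the 9 transcription factors and Trib3. The same 19 had their lowest value in library 2, against 17.2% of all genes. Where libraries 2, 5 and 8 are the 3 lowest, this follows from their order, so nothing more is read from it.

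Among the other enzymes Cth, cystathionine gamma-lyase, which releases cysteine from cystathionine, had the widest range of all 35 members tested. Cth (chr3:157894248-157925077, minus strand) stood at 59.3, 4.82 and 42.1 CPM in libraries 1 to 3, 59.3, 7.83 and 44.5 CPM in libraries 4 to 6, and 65.6, 13.2 and 49.6 CPM in libraries 7 to 9, on 168 to 2629 counts. Its range was 13.6-fold (95% interval 11.6 to 16.0), its gap 3.18-fold, and libraries 2, 5 and 8 differed among themselves by 1.45 on the log2 scale. Asns, asparagine synthetase, stood at 305, 80.3 and 273 CPM in libraries 1 to 3, 318, 96.8 and 289 CPM in libraries 4 to 6, and 347, 120.03 and 293 CPM in libraries 7 to 9, a range of 4.32-fold (95% interval 4.15 to 4.50). Gpt2, the mitochondrial alanine aminotransferase, stood at 279, 89.4 and 215 CPM in libraries 1 to 3, 245, 81.4 and 204 CPM in libraries 4 to 6, and 218, 85.6 and 200.1 CPM in libraries 7 to 9, a range of 3.43-fold (95% interval 3.27 to 3.59).

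Aldh18a1, the first enzyme of proline synthesis from glutamate, ranged 2.77-fold, from 95.4 to 264 CPM. Pycr1, which completes proline, was the variable member that departed from the shared order. It stood at 8.37, 3.90 and 4.63 CPM in libraries 1 to 3, 7.10, 5.03 and 4.72 CPM in libraries 4 to 6, and 7.75, 6.11 and 4.67 CPM in libraries 7 to 9, on 86 to 311 counts, with libraries 1, 4 and 7 highest. Its adjusted p of 4.12e-20 by the chi-square test was the largest of the members tested, and its range of 2.15-fold fell under 2-fold without library 1 (0.98 on the log2 scale) or library 2 (0.83). Got1, cytosolic aspartate aminotransferase, had 8 to 21 counts a library, or 0.265 to 0.640 CPM, and was not tested.

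Of 8 amino acid transporters tested, 6 were variable, against 27.3% of all genes, and 7 had libraries 2, 5 and 8 lowest, against 20%. Slc7a11 (chr3:49892526-50443614, minus strand), the cystine importer xCT, stood at 628, 101 and 502 CPM in libraries 1 to 3, 499.7, 79.8 and 430.4 CPM in libraries 4 to 6, and 453, 86.6 and 516 CPM in libraries 7 to 9. Its range was 7.86-fold (95% interval 7.53 to 8.22) and its gap 4.26-fold, next to that of Trib3. Slc7a5, the large neutral amino acid transporter LAT1, stood at 514, 111 and 401 CPM in libraries 1 to 3, 565, 135 and 445 CPM in libraries 4 to 6, and 579, 190.1 and 464 CPM in libraries 7 to 9, a range of 5.21-fold (95% interval 5.04 to 5.40). Slc3a2, the heavy chain that both of these transporters share, had a lower range of 2.72-fold, from 232 to 629.6 CPM.

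Slc7a1, the cationic amino acid transporter CAT1, stood at 335, 84.1 and 289 CPM in libraries 1 to 3, 347, 92.8 and 297 CPM in libraries 4 to 6, and 353, 117 and 336 CPM in libraries 7 to 9, a range of 4.20-fold (95% interval 4.04 to 4.38). Slc6a9, a glycine transporter, ranged 2.52-fold and Slc1a5, the glutamine transporter ASCT2, 2.92-fold. Slc38a2, the glutamine transporter SNAT2, kept the shared order within a narrow range. It stood at 615, 439.97 and 641 CPM in libraries 1 to 3, 609, 438 and 659 CPM in libraries 4 to 6, and 619, 445 and 657 CPM in libraries 7 to 9, a range of 1.503-fold (95% interval 1.47 to 1.54), and libraries 2, 5 and 8 differed among themselves by only 0.02 on the log2 scale.

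Slc1a4, the serine and alanine transporter ASCT1, went against its group. It stood at 177, 189 and 171 CPM in libraries 1 to 3, 180.4, 183 and 167 CPM in libraries 4 to 6, and 156, 167 and 157 CPM in libraries 7 to 9, a range of 1.21-fold (95% interval 1.17 to 1.25) that still exceeded counting noise (chi-square test, adjusted p 5.22e-35). Libraries 2 and 5 held its highest values and library 8 lay among the others. Libraries 7 to 9 were all below libraries 1 to 3 and, with library 8 just under library 6, below libraries 4 to 6, the latter as in 4.88% of all genes. Slc7a3, another cationic amino acid transporter, had 8 to 22 counts a library and was not tested.

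**Figure D3:**
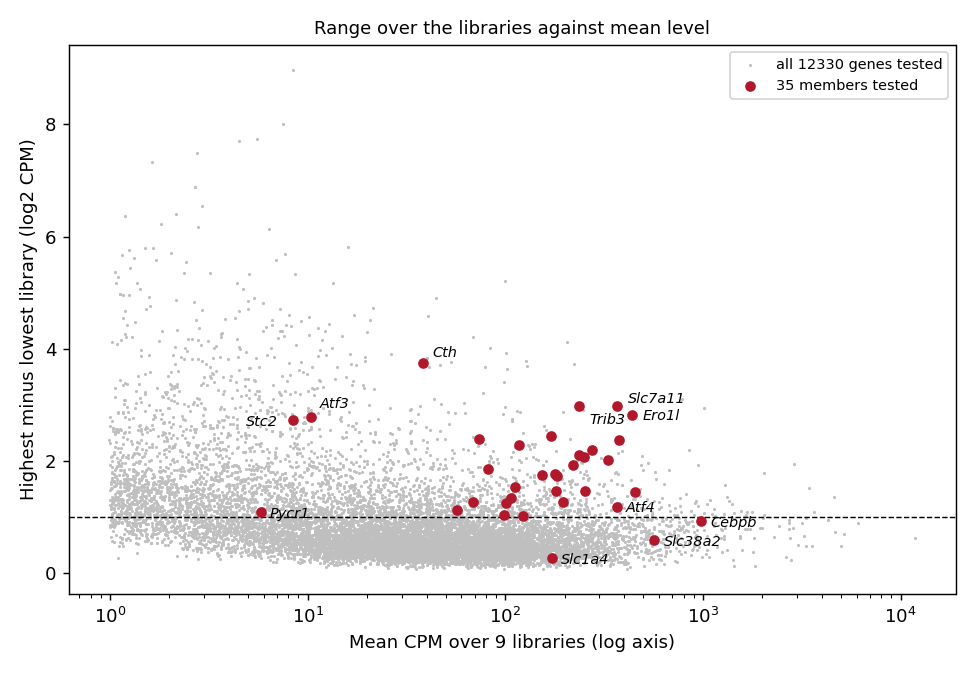
Range over the 9 libraries (highest minus lowest log2 CPM, vertical axis) against mean CPM (horizontal log axis) for the 12330 genes tested, in grey, and the 35 members tested, in red. The dashed line marks 2-fold, and 32 red points lie above it, with Cth highest among the members at 3.75 on the log2 scale and Slc1a4 lowest at 0.27.

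The members were also read by place at the ends of the title blocks and by block. In 27 of 35 members the first library of the block was above the last in all 3 blocks, against 31.3% of all genes. Slc38a2 alone had the opposite order in all 3, against 22.4% of all genes. In 10 members the values were ordered by block at every place, 1 to 3 below 4 to 6 below 7 to 9, against 14.1% of all genes. These were Aldh18a1, Asns, Atf4, Ero1l, Mthfd2, Psph, Shmt2, Slc1a5, Slc7a1 and Slc7a5. The reverse order was found in Cebpb, Nupr1 and Slc6a9, against 13% of all genes. Whole title blocks cannot separate in the 32 members with libraries 2, 5 and 8 lowest, so the counts that follow were largely fixed by that order and nothing is read from them. Libraries 4 to 6 lay wholly above libraries 1 to 3 in 0 of the 35 members (3.97% of all genes) and wholly below them in 0 (4.65%). Libraries 7 to 9 lay wholly above libraries 1 to 3 in 0 (9.51%) and above libraries 4 to 6 in 0 (3.61%). The highest value fell in library 7 in 20 members, against 16.4% of all genes.

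Of other targets of ATF4 outside the 38, 12 of 17 had their 3 lowest values in libraries 2, 5 and 8, against 20% of all genes. Variable genes were 13 of the 17, against 27.3% of all genes. Variable genes with libraries 2, 5 and 8 lowest were 11 of the 17, against 4.83%. The variable genes outside this order were Tnfrsf10b and Pmaip1. Tnfrsf10b was highest in the middle library of each title block, at 39.2, 50.3 and 60.8 CPM in libraries 2, 5 and 8. Pmaip1 ran from 0.977 to 3.35 CPM with neither order. Aldh1l2, a mitochondrial folate enzyme, stood at 285, 56.5 and 236 CPM in libraries 1 to 3, 351, 74.8 and 277 CPM in libraries 4 to 6, and 427, 114 and 394 CPM in libraries 7 to 9, and Adm2, a peptide hormone gene, ran from 2.17 to 17.7 CPM. Of 20 cytosolic tRNA synthetase genes, 13 were variable and all 13 had libraries 2, 5 and 8 lowest. Variable or not, 15 of the 20 had this order. The widest were Wars, for tryptophan, at 48.5 to 226 CPM, and Nars, for asparagine, at 244 to 851 CPM. The 7 synthetase genes that were not called were Mars, Hars, Kars, Rars, Dars, Qars and Farsa, of which Mars and Rars had libraries 2, 5 and 8 lowest.

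Of 13 listed genes of the machinery upstream of ATF4, 1 was variable at the mRNA level, against 27.3% of all genes. The list held genes for eIF2 kinases, the eIF2 and eIF2B factors and their partners. The variable gene was Eif2b3, a subunit of eIF2B, at 12.8 to 28.2 CPM with libraries 2, 5 and 8 lowest. Ppp1r15a, which also acts on eIF2 and was variable, was counted among the members and not in this list. The median range of the 13 was 0.45 on the log2 scale, below the 0.67 of all genes tested. Against 20% of all genes each way, libraries 2, 5 and 8 were the 3 lowest in 4 of the 13 and the 3 highest in 2. The latter were Eif2ak3, the gene of the kinase PERK, at 29.6 to 53.0 CPM, and Eif2ak2, the gene of the kinase PKR, which reached 128 CPM in library 2, both under 2-fold.

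Targets of ATF6 and XBP1, the other arms of the unfolded protein response, mostly had the opposite order. Of 16 genes tested, 10 had libraries 2, 5 and 8 highest and 2 had them lowest, against 20% of all genes each way. Variable genes were 5 of the 16, against 27.3% of all genes. Of these 5, 4 were highest in libraries 2, 5 and 8. The exception was Herpud1, which ATF4 can also induce and which ran from 106 to 235 CPM. Sdf2l1, a cofactor of the chaperone BiP, stood at 27.1, 50.1 and 25.9 CPM in libraries 1 to 3, 27.0, 57.0 and 27.8 CPM in libraries 4 to 6, and 26.8, 65.2 and 17.8 CPM in libraries 7 to 9, and Creld2, a disulfide isomerase gene, ran from 29.6 to 67.8 CPM. Creld2's call was lost without library 8, where its range was 0.79 on the log2 scale. Summed over the 16 genes, libraries 2, 5 and 8 held 6894 to 7801 CPM and the others 5123 to 6515 CPM.

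Targets of NRF2, a factor that shares Slc7a11 with ATF4, did not share 1 order. Of 8 tested, 4 had libraries 2, 5 and 8 lowest and 2 had them highest, against 20% of all genes each way. Variable genes were 4 of the 8, against 27.3% of all genes. Hmox1, haem oxygenase 1, stood at 575, 213 and 392 CPM in libraries 1 to 3, 504, 185 and 376 CPM in libraries 4 to 6, and 447, 164 and 411 CPM in libraries 7 to 9, and Gclc, the catalytic subunit of glutathione synthesis, ran from 40.5 to 90.8 CPM, both with libraries 2, 5 and 8 lowest. Gsr, glutathione reductase, ran from 162 to 358 CPM with these libraries highest, and Srxn1, sulfiredoxin, from 79.1 to 159 CPM with neither order. Srxn1's call was lost with totals alone (0.97 on the log2 scale) or a filter by edgeR's filterByExpr (0.99), and without library 1 (0.84), library 2 (0.99) or library 7 (0.81).

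Genes of mitosis moved with the same libraries in the other direction. All 20 genes of the list were variable, against 27.3% of all genes, and 17 had libraries 2, 5 and 8 highest, against 20%. Their summed level was 352 to 795 CPM in libraries 2, 5 and 8 and 65.2 to 232 CPM in the other 6. Ccnb2, a mitotic cyclin gene, stood at 0.830, 7.28 and 0.477 CPM in libraries 1 to 3, 2.52, 14.2 and 1.01 CPM in libraries 4 to 6, and 6.41, 25.9 and 3.96 CPM in libraries 7 to 9. In each of the 20, library 2 was below library 5 and library 5 below library 8. This order was also found in 19 of the 35 members, the serine enzymes among them, and in 33% of all genes. By block at every place, 19 of the 20 mitosis genes rose, against 14.1% of all genes. The part of cell division in the members' values was not tested.

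**Figure D4:**
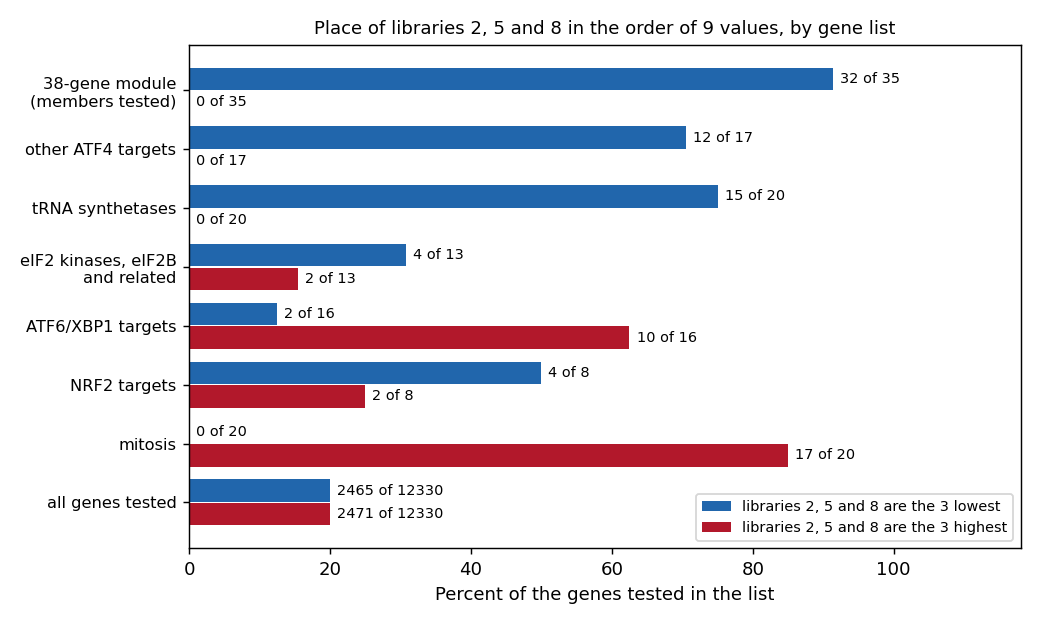
Percent of the genes tested in each list whose values in libraries 2, 5 and 8 were the 3 lowest (blue) or the 3 highest (red) of the 9, with counts at the bar ends. The bars give 32 of 35 members lowest, 17 of 20 mitosis genes highest and 20% each way over all genes tested.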

How the data were processed

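For the 9 libraries the authors deposited expected counts (estimated read counts per gene, here whole numbers without normalisation). The submitters' processing notes list RSEM 1.3.3, STAR 2.7.8a, cutadapt 2.3, FastQC 0.11.8 and the build GRCm38, and no source used here gives the annotation release or the strand setting. Reads that fit several genes are shared out by RSEM. Exons of Slc6a9 (27.8% of their bases), Cebpb (20.7%) and Psph (10.4%) overlap a gene on the opposite strand in GENCODE M21, whose coordinates and exon lengths were used, and these values are less certain. All 9 columns matched a title, and 0 were left unmapped.

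Libraries were scaled with TMM factors (edgeR 4.0.16, R 4.3.3). Genes with a mean of at least 1 CPM were kept, since a minimum in every library would drop genes near 0 in some. Log2 CPM used a prior count of 2. With no groups there was no coefficient for a quasi-likelihood test, so a chi-square test of the 9 counts against counting noise was used, checked on simulated data. It does not separate biological from preparation differences. Ratios carry exact 95% conditional binomial intervals, which cover counting error only. A gap is the lowest of the other 6 libraries divided by the highest of libraries 2, 5 and 8, and has no test. The members, lists, and genes to be named were chosen with earlier results of these data known. All 38 members are named, with 9 values for Atf4, Ddit3, Trib3, Asns, Slc7a11 and the 3 of widest range in each role. Other genes shown are the widest of their lists or were picked after their values were seen (Eif2ak2, Eif2ak3, Herpud1, Gclc, Gsr, Srxn1, and the exceptions within a list). Of 118 list symbols 118 were found, 2 under a newer symbol.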

Additional observations from a re-analysis of the deposited data

How the results depend on the processing

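The count of 32 variable members stayed between 29 and 32 when any 1 library was left out, and was 31 with RLE factors, 30 with totals alone, 31 with no filter, 32 with filterByExpr, with a prior count of 0.5 or with rows of a shared symbol summed, and 34 with a 1.5-fold range. Over all genes the count of 3369 lay between 3066 and 3336 with 1 library left out, and was 6412 with no filter and 7036 with a 1.5-fold range. The members with libraries 2, 5 and 8 lowest numbered 32 with any 1 library left out. Those with them highest numbered 0 in every setting except without library 8, when libraries 2 and 5 were highest in 1. The median range of the members lay between 1.59 and 1.75 on the log2 scale with 1 library left out. In libraries 1, 3, 4, 6, 7 and 9 alone, 3 members (Atf3, Ero1l and Stc2) were variable, the members' median range was 0.47 and 1562 genes were variable, a setting that leaves out the 3 libraries that set most ranges. Calls of Nupr1, Ddit4 and Pycr1 were the ones lost with another scaling, no filter or 1 library left out.

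No paired analysis was possible because the labels give no library a group. Fgf21, Got1 and Slc7a3 all went untested because their means were under 1 CPM. Got1 and Slc7a3 had at least 8 counts in every library, and Fgf21 had 2 to 10 counts a library. A count of 3 is worth 0.0748 CPM in the deepest library and 0.163 CPM in the shallowest. That count is given as a guide to depth, and no gene was filtered or called by it.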

Other observations

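For aspartate aminotransferase, the member of the list was the form with less mRNA per length. Got2, the mitochondrial aspartate aminotransferase, was picked after the values of Got1 were seen and stood at 267, 203 and 246 CPM in libraries 1 to 3, 277, 201 and 264 CPM in libraries 4 to 6, and 297, 227 and 273 CPM in libraries 7 to 9. Its median level was 54.7 CPM per kb of merged exons, against 0.192 CPM per kb for Got1, its cytosolic counterpart, whose promoter window holds the searched element. In Got2 libraries 2, 5 and 8 were the 3 lowest, within a range of 1.47-fold.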
